A study of Macaca mulatta with 9 samples.

Results

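The comparison set whole blood of 3 rhesus macaques (Macaca mulatta) injected with Evs-ABPC against that of 3 macaques injected with PBS, the vehicle. These 6 animals are part of 9. Each gave 1 RNA-seq library, which makes the 3 libraries of a group separate biological samples. The remaining 3 animals received Evs-FBMSC and stand beside the comparison as a second vesicle group. Per the series text the animals were allocated to the groups at random. Evs are extracellular vesicles, the membrane-bound particles that cells release, and ABPC are antler blastema progenitor cells; the labels do not spell out FBMSC. All 9 animals are labelled WT, and the PBS libraries are described as Old. The labels used here give no dose, route, number of injections, time of sampling, age or sex. Of 24371 genes in the table, 9039 were expressed highly enough to be tested, and each was compared between the groups after scaling each library to its typical gene.

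Whole blood holds red cells, platelets and several kinds of white cells, and its RNA is a mixture of all of them. Mature red cells have no nucleus. Their youngest circulating form, the reticulocyte, still carries RNA made in the bone marrow, chiefly globin messages together with transcripts for heme synthesis, the membrane skeleton and the late removal of organelles. Among white cells, neutrophils and monocytes belong to innate immunity, and T cells, natural killer (NK) cells and B cells are the lymphocytes. In a mixture of this kind fewer cells of a type and less RNA per cell cannot be told apart.

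Globin messages took a smaller share of the Evs-ABPC libraries. Of the per-million values, which are divided by gene length, the globin genes held 92.7%, 88.3% and 88.4% in PBS replicates 1 to 3 and 82.5%, 71.0% and 75.1% in Evs-ABPC replicates 1 to 3. All 3 Evs-ABPC animals thus lay below all 3 PBS animals, with means of 76.2% ± 5.82 and 89.8% ± 2.55 (SD, n = 3 each; two-sided exact permutation p = 0.1, the smallest that 3 against 3 allow). Whole reads could be recovered from the values. Of these reads, with no division by length, globin genes held 73.0%, 61.9% and 58.0% in PBS and 43.5%, 28.1% and 31.7% in Evs-ABPC, also without overlap. A library held 12.1 to 14.6 M of them in PBS and 12.7 to 14.0 M in Evs-ABPC (M, 1000000 reads). Reads outside the red cell genes numbered 2.99 to 5.06 M in PBS and 7.63 to 8.89 M in Evs-ABPC. Genes other than those of red cells were therefore measured with more reads in Evs-ABPC. A ribosomal RNA locus took 0.5% to 5.41% of the reads of a library, with overlapping groups.

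Because per-million values share a fixed total, a smaller globin share raises every other value. Each library was therefore divided by its median ratio over the 13350 genes above 0 in all 9 libraries; the factors ran from 0.330 to 0.767 in PBS and from 1.52 to 2.52 in Evs-ABPC. The quotient is called the scaled value below. A scaled value can exceed 1000000 where the factor is below 1, and differences are given on the log2(scaled value + 1) scale, Evs-ABPC minus PBS, which understates the change of low genes. After scaling, the median difference over the 9039 genes was -0.03, against 1.49 without scaling. Values below are therefore relative to the typical gene of the same library.

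No gene passed an adjusted p of 0.05 in limma's moderated test over all genes, in either direction. The smallest adjusted p was 0.067. At an unadjusted p under 0.05 there were 732 genes lower in Evs-ABPC (8.1% of those tested) and 239 higher (2.64%). The higher count was 69 without Evs-ABPC replicate 3, 481 without Evs-ABPC replicate 2 and 370 without PBS replicate 3. The groups did not overlap for 761 genes that were lower (8.42%) and for 512 that were higher (5.66%). At an adjusted p under 0.1, a limit added after the data were seen, 29 genes were lower (0.321%) and 2 were higher (0.0221%). A second test, limma-voom on the recovered reads, passed 1 lower gene (0.0111%) and 0 higher, with 724 lower (8.01%) and 182 higher (2.01%) at an unadjusted p under 0.05. Without scaling, 8379 genes passed as higher and 7 as lower. The lists of genes described next are read against these shares.

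Red cell genes lay furthest below the typical gene. The 5 red cell lists hold 109 genes, of which 102 were in the table and 96 could be tested. Of these 96, 86 were lower in Evs-ABPC, where 53.3% of all tested genes were lower, and 70 were lower at an unadjusted p under 0.05. None was higher at that limit. The groups did not overlap for 43 of the 96, and the median difference was -1.26. None passed an adjusted p of 0.05, and 6 were under 0.1.

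**Figure D1:**
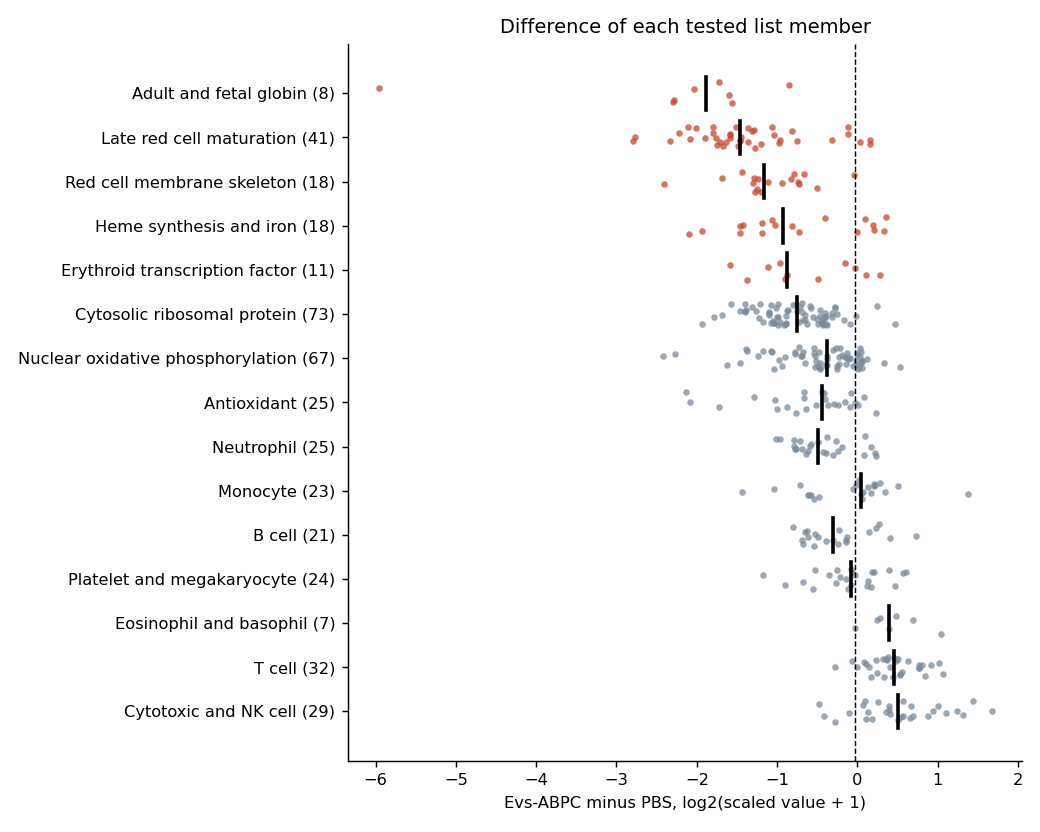
Each point is the Evs-ABPC minus PBS difference on the log2(scaled value + 1) scale of 1 tested gene, by list, with the number tested in parentheses; black bars are list medians and the dashed line is the median of all 9039 genes. The 5 red cell lists (red) have medians from -1.88 to -0.88, and the T cell and cytotoxic lists lie on the other side of the line with medians of 0.46 and 0.51.

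The strip plot of list members shows the order of the lists. All 8 tested globin genes were lower, with a median of -1.88, and 6 of them at an unadjusted p under 0.05. With 1 animal left out that count ran from 4 of 7, without PBS replicate 1, to 8 of 8, without PBS replicate 3. HBB, which encodes the beta chain of adult hemoglobin, had scaled values of 2029300, 1354600 and 862286 in PBS replicates 1 to 3 and of 415962, 220086 and 216659 in Evs-ABPC. The highest Evs-ABPC value was below the lowest PBS value, and the group means differed 4.98-fold (difference -2.30, SE 0.51, limma adjusted p = 0.132). The alpha-chain gene HBA had scaled values of 711678, 484864 and 272487 in PBS and of 113711, 95960 and 73905 in Evs-ABPC. Its difference was -2.29 (SE 0.49, limma adjusted p = 0.121), close to that of HBB. HBA1, another alpha-chain gene, differed by -1.73 (SE 0.58), also without overlap. The alpha genes are close copies, so the division of reads between them is uncertain.

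The fetal gamma-globin gene HBG2 had the lowest difference of the 9039 genes. Its scaled values were 981, 161 and 1641 in PBS replicates 1 to 3, 35.7, 27.4 and 20.2 in Evs-FBMSC and 31.1, 3.15 and 7.06 in Evs-ABPC. PBS replicate 2 was far below the other PBS animals yet above every animal given vesicles. The difference was -5.96 (SE 0.89, limma adjusted p = 0.0765), from 928 ± 742 to 13.8 ± 15.1 (SD, n = 3 each). HBG2 has a near-identical neighbour in the gamma-globin pair, so its reads may be shared. HBM and HBZ, genes of the alpha-globin cluster, differed by -2.03 (SE 0.60) and -1.56 (SE 0.61) with no overlap, and HBQ1 (-1.60, SE 0.87) and the embryonic HBE1 (-0.85, SE 0.52) overlapped.

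**Figure D2:**
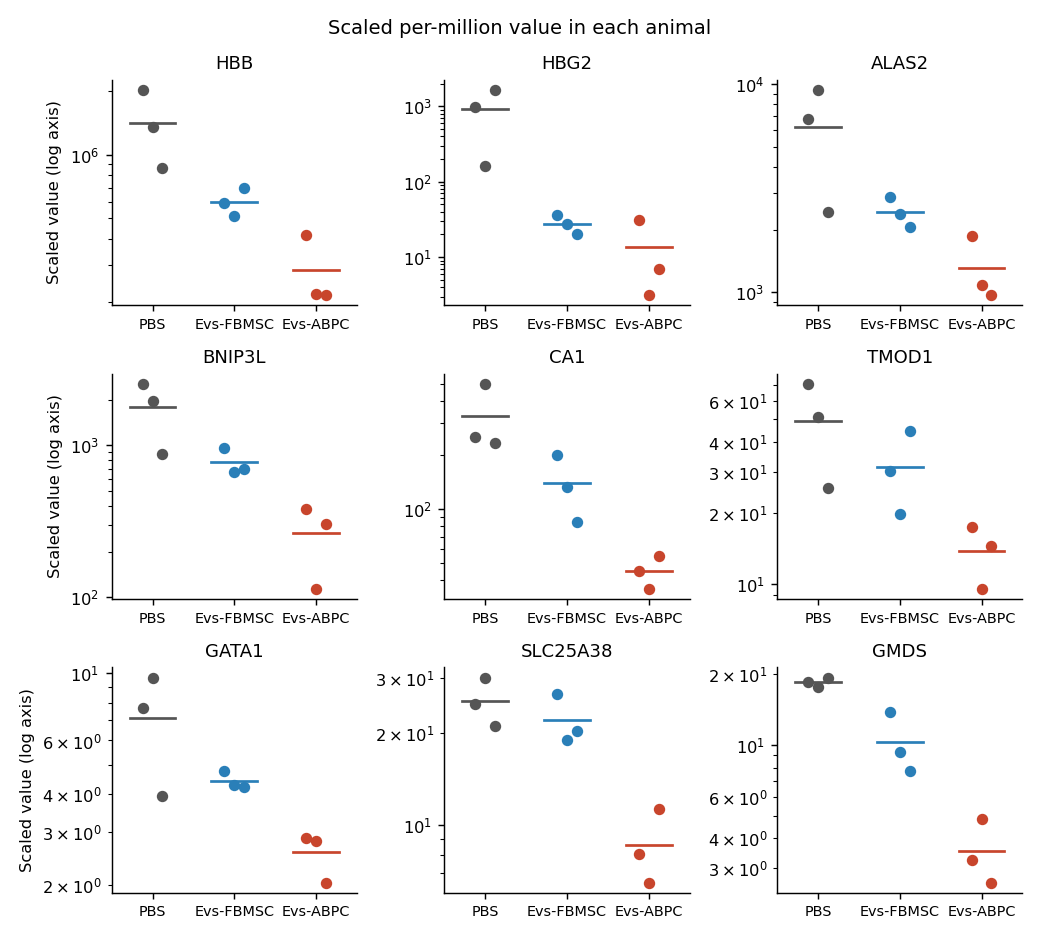
Scaled value (log axis, a different range in each panel) of 9 genes in each animal; points are animals in replicate order, horizontal bars are group means. In all 9 panels the 3 Evs-ABPC animals lie below the 3 PBS animals. Evs-FBMSC overlaps Evs-ABPC for HBG2, through Evs-ABPC replicate 1. It overlaps PBS in several panels, among them ALAS2, BNIP3L and SLC25A38, each through Evs-FBMSC replicate 1. For GATA1 all 3 Evs-FBMSC animals lie within the PBS range.

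Heme synthesis and iron genes were not uniform. Of 18 tested, 13 were lower, 9 of them at an unadjusted p under 0.05, with a median of -0.92. With 1 animal left out the count of 9 ran from 6, without PBS replicate 1, to 10, without PBS replicate 3. ALAS2, which catalyses the first and rate-setting step of heme synthesis in erythroid cells, had scaled values of 6816, 9370 and 2423 in PBS and of 1873, 1088 and 970 in Evs-ABPC, without overlap (-2.10, SE 0.53, limma adjusted p = 0.183). SLC25A38, which brings glycine into mitochondria for that step, had 24.7, 30.2 and 21.0 in PBS and 8.04, 6.51 and 11.3 in Evs-ABPC. The Evs-FBMSC animals were at 26.7, 18.9 and 20.3, the first within the PBS range and the others just below it. The difference from PBS was -1.47 (SE 0.25, limma adjusted p = 0.0909), and that from Evs-FBMSC was -1.27 (limma unadjusted p = 0.00053, adjusted p = 0.833). SLC25A37, the mitochondrial iron importer of red cell precursors, differed by -1.42 and the iron store subunit FTL by -1.93, both without overlap. UROS, which acts in the middle of heme synthesis, differed by -1.19. Other members lay at the typical gene. TFRC, the transferrin receptor through which precursors take up iron, had scaled values of 1.72, 1.07 and 1.47 in PBS and 1.64, 1.29 and 1.83 in Evs-ABPC (0.10, SE 0.17). The iron-regulated RNA-binding proteins IREB2 and ACO1 (0.19 and 0.36) and the heme enzyme CPOX (0.33) were also within the spread of the animals.

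All 18 tested genes of the red cell membrane and its skeleton were lower, 15 at an unadjusted p under 0.05, with a median of -1.16. TMOD1, which caps the actin of the skeleton, had scaled values of 70.8, 51.0 and 25.6 in PBS and 17.4, 9.56 and 14.5 in Evs-ABPC. These ranges did not touch, and Evs-ABPC replicate 2 was the lowest of all 9 animals (-1.68, SE 0.42, limma adjusted p = 0.17). The blood group proteins XK and KEL differed by -1.30 and -0.94 without overlap. SLC4A1, the anion exchanger band 3, overlapped, with 167, 260 and 76.8 in PBS and 80.3, 41.1 and 96.0 in Evs-ABPC (-1.12, SE 0.48). ADD1, a skeleton protein also made outside red cells, was at -0.04 (SE 0.22). The count of 15 rested on single animals: it was 8 without PBS replicate 1, 6 without PBS replicate 2 and 7 without Evs-ABPC replicate 2.

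Late maturation genes, those of organelle clearance, iron-sulfur assembly and red cell enzymes, made the longest red cell list. Of 41 tested, 38 were lower and 35 at an unadjusted p under 0.05. That count was 24 without PBS replicate 1 or PBS replicate 2, 26 without Evs-ABPC replicate 2 and 35 without PBS replicate 3. The groups did not overlap for 22, and the median was -1.47. BNIP3L, the receptor through which maturing red cells discard mitochondria, had scaled values of 2546, 1968 and 884 in PBS and 379, 114 and 302 in Evs-ABPC (-2.80, SE 0.54, limma adjusted p = 0.106). CA1, a red cell carbonic anhydrase, had 252, 500 and 233 in PBS, 200, 132 and 84.2 in Evs-FBMSC and 44.9, 35.8 and 54.9 in Evs-ABPC. The 3 Evs-ABPC animals were close together and below every other animal (-2.76, SE 0.41, limma adjusted p = 0.0765). ISCA1 and GLRX5, which assemble iron-sulfur clusters in mitochondria, differed by -2.33 and -2.11, and MXI1, an antagonist of MYC, by -1.75. These 3 genes each had a limma adjusted p of 0.0909. HEMGN, a nuclear protein of red cell precursors, had 121, 39.1 and 35.8 in PBS, 60.5, 45.1 and 48.2 in Evs-FBMSC and 18.6, 5.36 and 13 in Evs-ABPC. Its difference from PBS was -2.23 (SE 0.51), that of Evs-FBMSC from PBS was -0.12, and that of Evs-ABPC from Evs-FBMSC was -2.11 (limma unadjusted p = 0.0023). The 3 members that were not lower were YBX3, SLC6A8 and OPTN, at 0.03 to 0.16.

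Of 11 erythroid transcription factors tested, 9 were lower, 5 at an unadjusted p under 0.05 (3 without PBS replicate 2). Their median was -0.88. GATA1, the master regulator of red cell genes, had scaled values of 7.66, 9.68 and 3.95 in PBS and 2.87, 2.80 and 2.04 in Evs-ABPC, without overlap (-1.12, SE 0.26, limma adjusted p = 0.144). NFIX had 41.9, 39.7 and 19.9 against 10.3, 9.82 and 10.2 (-1.58, SE 0.30). KLF1, which turns on adult beta-globin, overlapped, with 58.5, 68.7 and 43.3 against 44.9, 8.89 and 22.0 (-1.38, SE 0.49). BCL11A, which silences gamma-globin and is also a B cell factor, was at -0.16, ZBTB7A, another silencer of gamma-globin, at 0.11, LDB1 at -0.03 and GFI1B at 0.28, all with overlapping groups.

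The red cell lists did not move evenly over the animals. PBS replicate 3 was below the other PBS animals in the summed scaled level of each red cell list: late maturation genes summed to 10297, 9615 and 3386 in PBS replicates 1 to 3 and to 1948, 1443 and 2034 in Evs-ABPC. Without PBS replicate 3, 178 genes passed an adjusted p of 0.05 in limma, 172 of them lower, and 180 passed in limma-voom, 179 lower; among the genes that then passed in limma were BNIP3L, CA1, ALAS2, GATA1, HBB, HBA, HBG2, HBE1, NFIX and SLC25A38. Leaving out each of the other 8 animals gave 0 to 3 passing genes in either test. Evs-ABPC replicate 2 was the lowest of 9 animals for 29 of 41 late maturation genes and for 12 of 18 membrane genes, and Evs-ABPC replicate 3 for 6 of 8 globin genes.

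**Figure D3:**
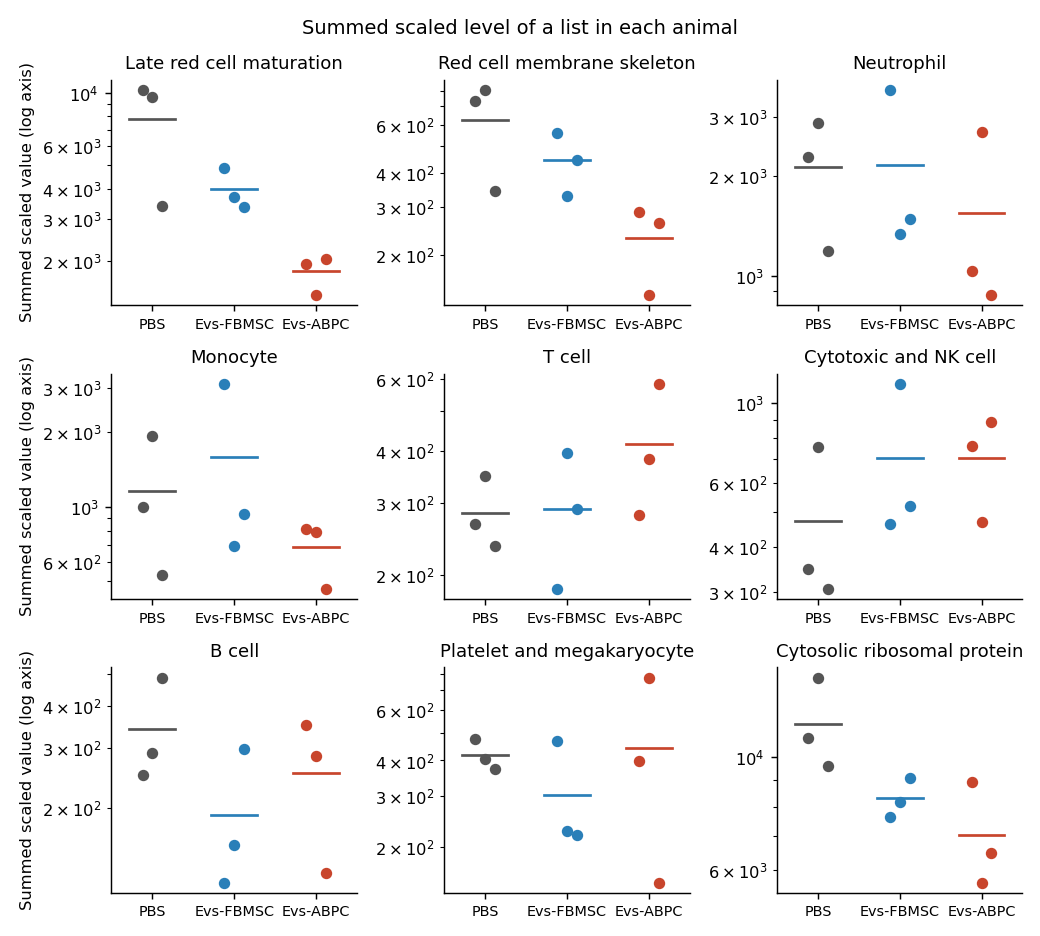
Summed scaled value of a list (log axis, a different range in each panel) in each animal; points are animals in replicate order, horizontal bars are group means. The groups PBS and Evs-ABPC do not overlap for late red cell maturation, the membrane skeleton and the cytosolic ribosomal proteins; in the other 6 panels they overlap.

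T cell and cytotoxic genes lay on the other side of the typical gene. Of 32 T cell genes tested, 29 were higher in Evs-ABPC, where 46.7% of all tested genes were higher, with a median of 0.46; 4 were higher at an unadjusted p under 0.05 and for 8 the groups did not overlap. Of 29 cytotoxic and NK genes, 25 were higher, with a median of 0.51, 5 at an unadjusted p under 0.05 and 4 without overlap. None passed an adjusted p of 0.05. The T cell median was 0.20 without Evs-ABPC replicate 3, and the cytotoxic median 0.33 without PBS replicate 3. The summed T cell level was 267, 348 and 236 in PBS replicates 1 to 3 and 281, 384 and 584 in Evs-ABPC, so the groups overlapped and Evs-ABPC replicate 3 was the highest. That animal had the highest value of 9 for 21 of the 32 T cell genes. Without it 1 T cell gene and 1 cytotoxic gene were higher at an unadjusted p under 0.05, against 11 T cell genes without Evs-ABPC replicate 1, 7 without Evs-ABPC replicate 2 and 2 without PBS replicate 3. For the cytotoxic genes the count was 11 without Evs-ABPC replicate 2, 8 without PBS replicate 2, and 2 without PBS replicate 1, PBS replicate 3 or Evs-ABPC replicate 1.

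Among single T cell genes, CD3E, a chain of the T cell receptor complex, had scaled values of 29.4, 39.4 and 26.3 in PBS and 20.8, 46.3 and 71.3 in Evs-ABPC (0.38, SE 0.42), and CD3D was at -0.01 (SE 0.45). Both genes overlapped between the groups. RORA, a transcription factor of T cells and innate lymphocytes, had 0.718, 0.682 and 0.864 in PBS and 2.04, 1.29 and 5.43 in Evs-ABPC, without overlap (1.02, SE 0.34, limma adjusted p = 0.299). CD96, an adhesion receptor on T cells and NK cells, differed by 1.06 (SE 0.38) and STAT4, which relays interleukin-12, by 0.76 (SE 0.29). Genes of naive T cells overlapped between the groups, with CCR7 at -0.27, TCF7 at 0.08 and LEF1 at 0.15.

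Of the cytotoxic genes, PRF1, the pore-forming protein perforin, had scaled values of 13.7, 29.1 and 15.8 in PBS, 26.6, 83.6 and 35.0 in Evs-FBMSC and 47.4, 30.6 and 96.2 in Evs-ABPC. The lowest Evs-ABPC value was just above the highest PBS value (1.44, SE 0.52, limma adjusted p = 0.34). NKG7, a granule membrane protein, overlapped, with 27.0, 55.2 and 18.7 against 61.7, 38 and 89.2 (0.94, SE 0.47). KLRF1, an activating NK receptor, had 1.56, 0.931 and 1.33 against 8.80, 1.34 and 15.2: replicates 1 and 3 of Evs-ABPC were high and replicate 2 was within PBS (1.67, SE 0.57). CX3CR1, a chemokine receptor that the monocyte list holds and that cytotoxic lymphocytes also carry, had 8.68, 23.4 and 13.7 against 34.7, 23.5 and 68.4 (1.38, SE 0.50). GZMB (0.70, SE 0.55) overlapped, and GZMK was at -0.48 (SE 0.48).

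The other white cell and platelet lists overlapped between the groups in their summed level, and in each of them at most 1 member per direction passed an unadjusted p of 0.05. Of 25 neutrophil genes 20 were lower with a median of -0.49, but 0 at an unadjusted p under 0.05 (4 without PBS replicate 3 and 5 without Evs-ABPC replicate 2). That median was -0.18 without PBS replicate 2, -0.29 and -0.22 without Evs-ABPC replicates 1 and 3, -0.90 without PBS replicate 3 and -1.01 without Evs-ABPC replicate 2. The summed neutrophil level was 2284, 2889 and 1186 in PBS and 1032, 2714 and 876 in Evs-ABPC, high in Evs-ABPC replicate 2 alone of its group. CSF3R, the receptor for the neutrophil growth factor, was highest in replicate 2 of both PBS and Evs-ABPC, with 427, 530 and 206 against 162, 517 and 166. In Evs-FBMSC it was highest in replicate 1, with 580, 226 and 178. The interleukin-8 receptor CXCR2 of neutrophils was at -0.38, the monocyte genes CD14 and CSF1R at -0.71 and 0.21, the B cell genes CD79A and MS4A1 at -0.62 and -0.54 and the platelet integrin ITGA2B at -0.06. Monocyte genes had a median of 0.05 over 23, dendritic cell genes 0.07 over 10, B cell genes -0.31 over 21, plasma cell genes -0.04 over 11 and platelet genes -0.07 over 24; the last pair changed sign, to 0.20 and 0.09, without scaling and less the median of all genes. With an animal left out, the B cell median was -0.53 without Evs-ABPC replicate 1, -0.47 without PBS replicate 1, -0.03 without PBS replicate 3 and -0.003 without Evs-ABPC replicate 3. The platelet median was -0.54 without Evs-ABPC replicate 2, -0.17 without PBS replicate 2, 0.04 without PBS replicate 1 and 0.29 without Evs-ABPC replicate 3. Those of monocyte, dendritic cell and plasma cell genes stayed between -0.14 and 0.22 and took both signs. The platelet sum was 473, 404 and 374 in PBS and 399, 776 and 151 in Evs-ABPC, so the 3 Evs-ABPC animals spread more widely than the PBS animals. Of 7 eosinophil and basophil genes 6 were higher (median 0.39; 0.12 without PBS replicate 2, 0.16 without PBS replicate 3, 0.21 without Evs-ABPC replicate 2 and 0.66 without PBS replicate 1), led by CCR3, the eotaxin receptor, at 1.04 (SE 0.44). Neutrophil granule genes had a median of -0.42 over 9, which turned to 0.11 without PBS replicate 2 and was -1.16 without PBS replicate 3 and -0.20 without Evs-ABPC replicate 3. Of markers of cells that blood should lack, 9 of 15 endothelial and 9 of 18 mesenchymal genes were below 1 in all 6 libraries, and the endothelial CDH5 and the mesenchymal COL1A1 and PDGFRA had scaled values of 0.11 or less in all 9 libraries. Others were measured: PECAM1, which white cells and platelets also carry, ran from 14.5 to 25.3 and PLVAP from 5.02 to 47.2, and VIM, an intermediate filament protein of white cells too, made up 75.3% of the mesenchymal sum. The medians were 0.08 over 5 tested endothelial genes (-0.30 without Evs-ABPC replicate 2) and -0.23 over 6 mesenchymal genes (0.06 without PBS replicate 2, and 0.25 without scaling and less the median of all genes).

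Ribosomal protein genes were lower in 71 of 73 cases, 29 at an unadjusted p under 0.05 and 29 without overlap, with a median of -0.75. RPL12, a protein of the large ribosomal subunit, had scaled values of 358, 334 and 205 in PBS and 123, 82.3 and 90.2 in Evs-ABPC (-1.57, SE 0.31, limma adjusted p = 0.114). PBS replicate 2 was the highest of 9 animals for 57 of the 73 genes and Evs-ABPC replicate 2 the lowest for 49. In Evs-ABPC replicate 2 some of them stood far below the other animals of the group, such as RPL26 at 43.1, 2.85 and 20.2 in replicates 1 to 3 and RPS24 at 66.5, 7.51 and 26.3. Without PBS replicate 2 the count was 14 with a median of -0.60, and without Evs-ABPC replicate 2 it was 16 with a median of -0.47. Nuclear genes of oxidative phosphorylation were lower in 54 of 67 cases, 24 at an unadjusted p under 0.05 (16 without PBS replicate 2), with a median of -0.38. ATP5F1E, the epsilon subunit of ATP synthase, had 239, 257 and 177 against 62.6, 24.5 and 43.5 (-2.42, SE 0.37, limma adjusted p = 0.0765).

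The other process lists ran from mostly lower to near the typical gene. Of 25 antioxidant genes 22 were lower and 7 at an unadjusted p under 0.05, led by PRDX6 (-2.13, SE 0.43) and GPX1 (-2.08, SE 0.52), peroxide-removing enzymes that red cells also hold. That count was 3 without PBS replicate 1 or PBS replicate 2 and 12 without PBS replicate 3. Of 43 proteasome genes 35 were lower and 6 at that limit, with a median of -0.21 that was 0.05 without scaling and less the median of all genes. The lowest p in that list was that of PSMC2, an ATPase of the regulatory cap, at 21.2, 24.8 and 19.7 against 11.3, 7.18 and 9.21 (-1.18, SE 0.21, limma adjusted p = 0.0909). Of 35 genes of vesicle sorting and uptake 5 were lower and 1 higher at that limit; the lower count was 1 without PBS replicate 1 and 2 without PBS replicate 2, Evs-ABPC replicate 1 or Evs-ABPC replicate 3. RAB5A, the GTPase of early endosomes, was at 43.1, 26.7 and 21.4 against 11.1, 8.27 and 10.4 (-1.47, SE 0.32), and CHMP7, a subunit of the membrane-cutting ESCRT-III complex, at 6.68, 5.69 and 3.97 against 10.5, 8.42 and 13.1 (0.86, SE 0.32). The median of that list was -0.15, from -0.28 to -0.07 with 1 of the 6 animals left out (lowest without Evs-ABPC replicate 2, highest without PBS replicate 2), and 0.08 without scaling and less the median of all genes. Lists of heat shock, cell cycle, DNA repair, senescence and inflammation genes had medians from -0.02 to 0.07, near the -0.03 of all genes; for senescence and cell cycle genes the sign turned without scaling and less the median of all genes (0.16 and -0.07). With 1 of the 6 animals left out, the medians of these 5 lists stayed between -0.15 and 0.21. Of the 11 mitochondrially encoded genes 7 were lower and 4 higher, 1 of them lower at an unadjusted p under 0.05. Their median was -0.53, from -0.67 to -0.36 with 1 of the 6 animals left out. The 17 tested genes of TGF-beta signalling, matrix and bone had a median of 0.07 (-0.08 without PBS replicate 3). Genes of autophagy (-0.17), glycolysis (-0.16), antigen presentation (-0.21), immediate early response (-0.19) and glucocorticoid response (-0.05) had medians that turned positive, at 0.02, 0.11, 0.08, 0.25 and 0.01, without scaling and less the median of all genes. With 1 animal left out they also turned for antigen presentation (0.02 without PBS replicate 3), immediate early response (0.03 without PBS replicate 2) and glucocorticoid response (-0.40 without Evs-ABPC replicate 2, 0.14 without PBS replicate 1). One member of the DNA repair list stood apart, NBN, a subunit of the break-sensing MRN complex, at 171, 121 and 62.7 against 21.1, 9.73 and 35.8 (-2.42, SE 0.51, limma adjusted p = 0.114).

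The difference varied with gene length. The recovered reads give a length for each gene, and of 680 tested genes over 500 and up to 1000 bases long 24.7% were lower at an unadjusted p under 0.05, against 3.76% of 3057 genes over 4000 bases. The median difference was -0.38 in the first class and 0.06 in the second. The pattern was not steadily stronger in shorter genes: the 297 genes up to 500 bases had a median of -0.22, with 21.5% lower and 7.41% higher at that limit. With the red cell genes left out the medians of the first 2 classes were -0.37 and 0.06. The tested ribosomal protein genes have a median length of 718 bases and those of oxidative phosphorylation 889, so both lists fall in the class of short genes, and the part of length in their differences was not tested. Genes of high level also lay lower, with a median of -0.28 over the 2260 genes of highest mean. Of those genes 16.5% were lower and 0.708% higher at an unadjusted p under 0.05. Among the 2260 genes of lowest mean the share was 3.54% in each direction. The part of level in the counts of the lists was not tested.

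**Figure D4:**
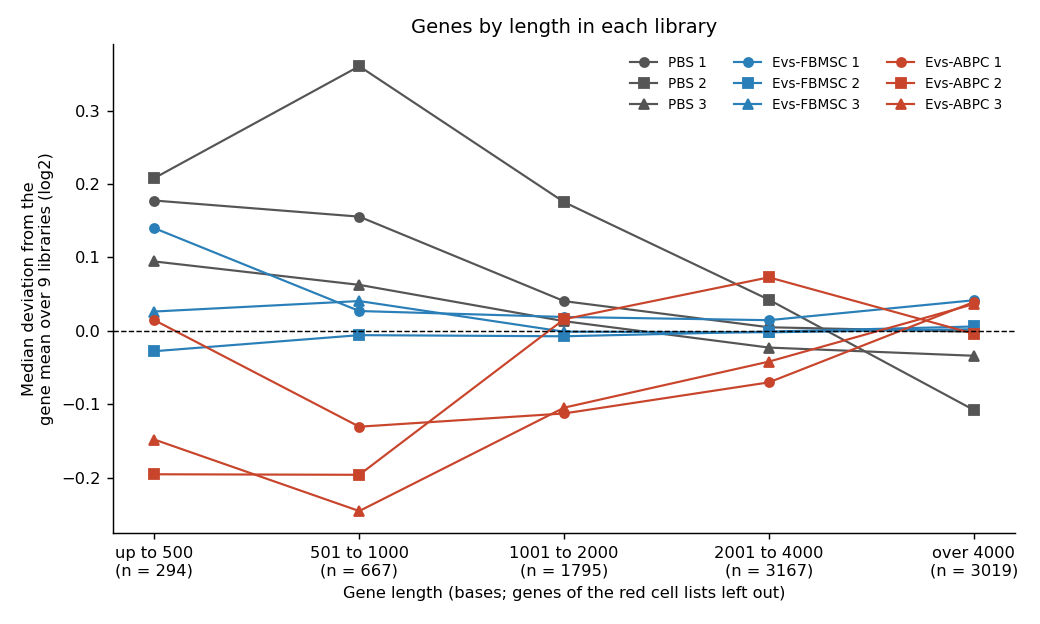
Median deviation (log2) of a library from each gene's mean over 9 libraries, by gene length in bases, red cell genes left out; lines are libraries. Among genes over 500 and up to 1000 bases long the PBS libraries lie at 0.06 to 0.36 and the Evs-ABPC libraries at -0.25 to -0.13, and the lines draw together towards long genes.

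Of single genes outside the lists, GMDS, the enzyme that starts the making of GDP-fucose for glycoproteins, had the smallest p. Its scaled values were 18.5, 17.7 and 19.3 in PBS, 13.8, 9.29 and 7.74 in Evs-FBMSC and 3.22, 4.84 and 2.59 in Evs-ABPC, from 332 to 1087 reads a library. The 3 groups did not overlap and the PBS animals differed little from each other (-2.13, SE 0.25, limma adjusted p = 0.067). GMDS was the 1 gene that passed in limma-voom on recovered reads (adjusted p = 0.0484), and over the 9 fits that each left out 1 animal its limma adjusted p ran from 0.0236 to 0.242. Its difference from Evs-FBMSC was -1.30 (limma unadjusted p = 0.00039, adjusted p = 0.833). Among the other genes of smallest p on the lower side were TESC, a calcium-binding protein, at 486, 396 and 240 against 102, 51.2 and 56.9 (-2.41, SE 0.37), and SERF2 at 477, 330 and 236 against 92.6, 84.8 and 79.6 (-1.95, SE 0.31). DECR1, a mitochondrial enzyme of fatty acid oxidation, differed by -1.88 (SE 0.32), the small GTPase RAB13 by -1.31 (SE 0.19) and the adhesion receptor ADGRG6 by -1.33 (SE 0.20). The limma adjusted p of these 5 genes ran from 0.0765 to 0.0909.

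On the higher side the gene with a symbol and the smallest p was CCL3, a chemokine of activated macrophages, NK cells and T cells. It had 0, 1 and 0 recovered reads in PBS replicates 1 to 3, 3, 6 and 5 in Evs-FBMSC and 39, 7 and 40 in Evs-ABPC. The scaled values were 0, 0.348 and 0 in PBS, 0.665, 1.10 and 1.06 in Evs-FBMSC and 5.82, 1.08 and 4.79 in Evs-ABPC. Evs-ABPC replicate 2 thus lay within the Evs-FBMSC range. Evs-ABPC replicates 1 and 3 were far above every other library, and the fitted difference of 1.98 (SE 0.39, limma adjusted p = 0.114) depends on the added 1 at such levels. CCL3 was tested in 7 of the fits that each left out 1 animal. Its limma adjusted p there ran from 0.0115 to 0.374, and it passed in 1 of them. The value of 0.0115 came without Evs-ABPC replicate 2, the lowest Evs-ABPC animal for this gene. LY9, a lymphocyte receptor of the SLAM family, had scaled values of 2.69, 2.12 and 2.19 in PBS and 4.20, 4.90 and 7.04 in Evs-ABPC (0.92, SE 0.21, limma adjusted p = 0.14). HPSE, the heparan sulfate cleaving enzyme heparanase, had 0.813, 1.28 and 1.45 against 4.04, 1.89 and 5.93 (1.11, SE 0.32). KIAA1257, FTSJ1, CHST6, CFAP298, GK5 and PAFAH2 were the others named on this side, with differences from 0.50 to 0.97 and limma adjusted p from 0.114 to 0.246. In PBS all of these named genes had scaled values under 3.

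The same 3 PBS animals serve the Evs-FBMSC comparison, so the values of the vesicle groups against PBS are not independent and are given side by side. Against PBS, 0 genes passed in Evs-FBMSC, with 257 lower (2.84%) and 182 higher (2.01%) at an unadjusted p under 0.05. Of all tested genes 48% were lower and 52% higher there. The red cell genes had a median of -0.42 in Evs-FBMSC and -1.26 in Evs-ABPC, and the T cell genes 0.08 and 0.46. The cytotoxic genes had 0.49 and 0.51. The test between the vesicle groups themselves passed 0 genes, with 396 lower in Evs-ABPC (4.38%) and 100 higher (1.11%) at an unadjusted p under 0.05. Of the 96 red cell genes 84 were lower in Evs-ABPC than in Evs-FBMSC, where 55.8% of all genes were lower and 44.2% higher, and 29 at that limit.

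**Figure D5:**
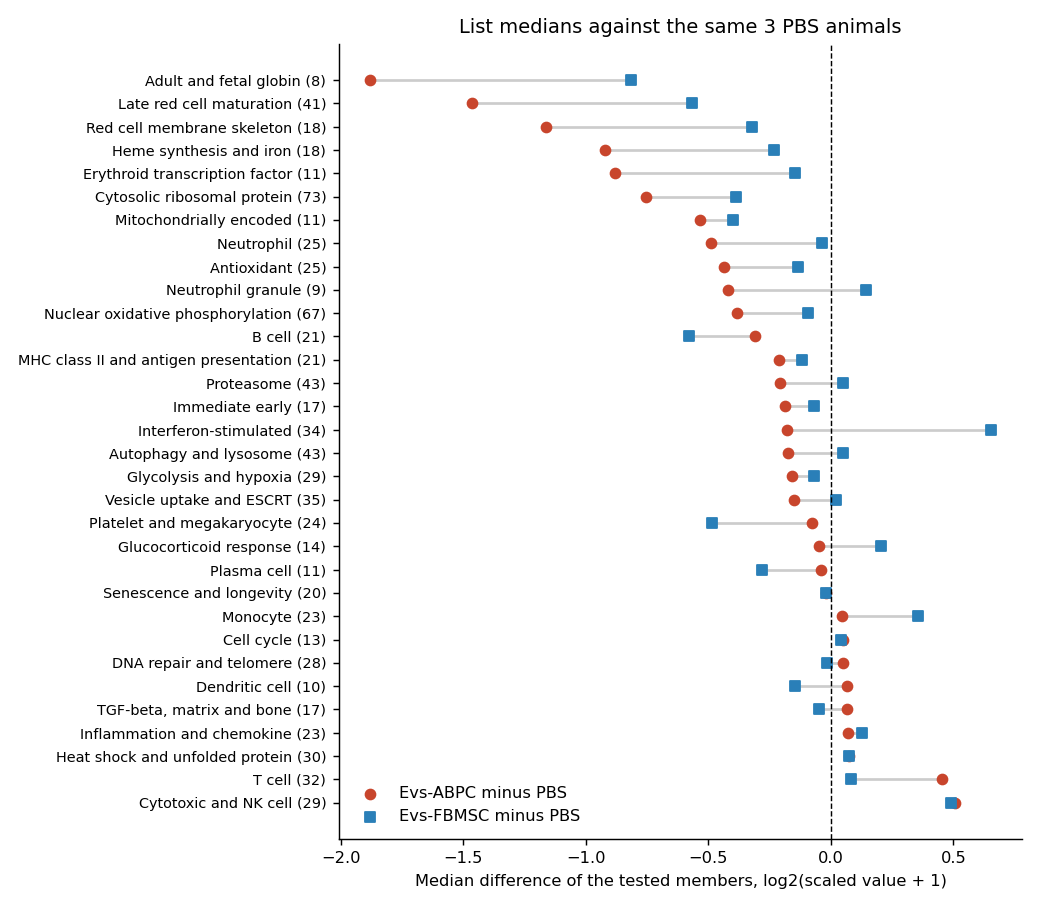
Median difference from PBS of the tested members of each list with at least 8 (number in parentheses), for Evs-ABPC (circles) and Evs-FBMSC (squares), on the log2(scaled value + 1) scale. The red cell lists lie further left for Evs-ABPC than for Evs-FBMSC, the cytotoxic list lies at about the same place for both, and the interferon-stimulated list lies at -0.18 for Evs-ABPC and 0.66 for Evs-FBMSC.

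Interferon-stimulated genes separated the vesicle groups more than they separated Evs-ABPC from PBS. Against PBS, 24 of 34 were lower in Evs-ABPC with a median of -0.18. At an unadjusted p under 0.05 there were 3 lower (1 without PBS replicate 1 or Evs-ABPC replicate 2, and 6 without PBS replicate 3). Over all tested genes 8.1% were lower at that limit, a share close to 3 of 34. The median was -0.38 without PBS replicate 2, -0.28 without PBS replicate 3 and -0.10 without Evs-ABPC replicate 3, and it turned to 0.23 without PBS replicate 1, whose summed level of 681 stood above 298 and 273 in the other PBS animals. Against Evs-FBMSC, 17 of the 34 were lower at an unadjusted p under 0.05, with a median of -0.82. The count of 17 was not retaken with an animal left out. Over all tested genes 396 (4.38%) were lower at that limit, from 190 without Evs-FBMSC replicate 1 to 483 without Evs-FBMSC replicate 2. The summed level was 712, 413 and 602 in Evs-FBMSC replicates 1 to 3 and 337, 352 and 240 in Evs-ABPC. RSAD2, the antiviral protein viperin, had scaled values of 6.20, 6.27 and 3.17 in PBS, 5.14, 5.37 and 10.1 in Evs-FBMSC and 2.69, 1.19 and 1.70 in Evs-ABPC. The 3 Evs-ABPC animals were below the other 6, with differences of -1.11 (SE 0.31, limma adjusted p = 0.222) from PBS and -1.44 (limma unadjusted p = 0.001, adjusted p = 0.833) from Evs-FBMSC.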

How the data were processed

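Whole-blood total RNA of 9 macaques was made into libraries with a NEBNext Ultra kit and read as 150-base pairs, per the labels' protocols; the build was Mmul_10, per the submitters' processing notes. Aligner, counting program and strand setting were not given in the sources used here. As for units, the authors' deposited values are log2 values, to which 0.5 was added before the log2; undone, they sum to 1000000 per library and behave like TPM. Whole reads came out for 21551 of 21551 genes above 0 in 2 or more libraries (tolerance 0.001 reads); the 2820 genes above 0 in 1 library were given 1 read there. All 9 columns matched samples by their descriptions.

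Scaled values were tested with limma 3.58.1 (R 4.3.3), with a trend, on log2(scaled value + 1), for genes of mean at least 1 over 9 samples, all samples in 1 fit with group as the only term, two-sided, with Benjamini-Hochberg adjustment over 9039 genes. limma-voom on recovered reads used the same genes and scaling. Named genes were the 10 of smallest p per direction that carry a symbol and do not overlap, those passing in limma-voom, the defining markers of each list and each list's extremes; some genes the rule names are not reported here, and further list members were picked with their values in view. The 35 lists and the comparison itself were chosen with earlier results of these data known, so lists are described by counts and medians with no test. Alternatives were other scalings, added constants, filters, fits and each animal left out. Lengths are those implied by the recovered reads.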

Additional observations from a re-analysis of the deposited data

How the results depend on the processing

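With all 9 animals in the limma fit, 0 genes passed, and 0 also passed with the scaling taken outside the red cell lists, with those lists removed and the rest rescaled (there 3266 higher and 109 lower at an unadjusted p under 0.05, against 239 and 732), with quantile normalization (454 and 502), with other added constants, with a filter of 1 in 3 samples, without the trend and with the 6 animals alone. Without scaling 8386 passed (8379 higher); with no filter 4 passed, all higher; with a mean of at least 3 it was 23, all lower; with limma-voom 1; at an adjusted p under 0.1 it was 31. Leaving out each animal gave 0 to 178 in limma and 0 to 180 in limma-voom, both highest without PBS replicate 3; there the spread of the 2 remaining PBS animals is pooled with that of the other groups. Against Evs-FBMSC 157 genes passed without scaling and 5 with no filter, and 0 when any 1 animal was left out. The medians moved for heme synthesis and iron genes (-0.52 without scaling, less the median of all genes, and -1.27 without PBS replicate 3), ribosomal protein genes (-0.24 on the same basis) and oxidative phosphorylation genes (-0.072). Leaving out animals moved the heme median between -1.27 and -0.65. Other lists moved as well. Over 13 settings, leaving out an animal among them, the neutrophil median ran from -1.01 to -0.08 and the antioxidant median from -0.74 to -0.19. The median of late maturation genes ran from -1.89 to -0.97 and that of erythroid transcription factors from -1.16 to -0.53. None of these medians changed sign. The cause of these shifts was not tested. The difference in globin share ran from -16.7 to -11.0 percentage points with 1 animal left out, each with an exact permutation p of 0.2, the smallest possible there. Lists of glycolysis, antigen presentation, immediate early, senescence, vesicle sorting, proteasome, mesenchymal, plasma cell, platelet, glucocorticoid response, cell cycle and autophagy genes changed the sign of their median when taken without scaling and less the median of all genes. The labels used here do not say that the replicate numbers pair the animals. Deviations of same-numbered PBS and Evs-ABPC animals correlated at -0.02, 0.25 and 0.17. The values were 0.21, -0.15 and 0.31 for PBS with Evs-FBMSC and -0.14, -0.25 and 0.10 for Evs-FBMSC with Evs-ABPC. So few values cannot show whether the numbers carry a pairing. With the replicate block 0 genes passed. Differences within the spread of 3 animals were not detectable, and genes outside red cells rest on fewer reads in PBS.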

Other observations

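The ratio of the summed T cell level to the summed neutrophil level was 0.117, 0.121 and 0.199 in PBS replicates 1 to 3, 0.0512, 0.296 and 0.195 in Evs-FBMSC and 0.272, 0.141 and 0.666 in Evs-ABPC, so Evs-ABPC replicate 2 lay within the PBS range. Several genes varied between animals of every group by far more than their neighbours in the same list. RPL37 had scaled values of 0, 53.2 and 0.157 in PBS, 35.7, 0.736 and 0 in Evs-FBMSC and 41.8, 0.621 and 1.38 in Evs-ABPC. The class II gene MAMU-DRB5 had 12.2, 18.9 and 1.27 in PBS and 46.5, 3.28 and 6.06 in Evs-ABPC, and MAMU-DQB1 had 4.61, 1.10 and 13.1 in PBS and 0.118, 0.203 and 8 in Evs-ABPC.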
